A study of Mus musculus with 34 samples.

Results

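The 6 MHC class II genes Cd74, H2-Eb1, H2-Aa, H2-Ab1, H2-DMa and Ciita were followed in sorted hematopoietic stem cells (HSCs) with and without YTHDF2, an m6A reader that promotes decay of modified mRNA. They were taken by name from a table of 13108 gene rows, in which all 6 have a row. HSCs (LSK CD48-CD150+) came from C57BL/6 mice, and each library held 100 cells amplified by SMART-Seq2. Ythdf2 CKO mice carry Ythdf2 fl/fl and Vav-iCre, which deletes in the hematopoietic lineages, and Ythdf2 CTL mice are Ythdf2 fl/fl littermates whose floxed allele encodes a GFP fusion. The young set held 4 CTL and 4 CKO mice. The aged set, 1 year old, held 4 CTL and 5 CKO mice. The comparison asks whether the genotype effect on these genes points the same way in young and in aged HSCs.

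MHC class II molecules present peptides from the endosomal route to CD4+ T cells. Professional presenting cells such as dendritic cells, B cells and macrophages carry most of them, but HSCs and early progenitors carry them too, and interferon-γ raises them. CIITA is the coactivator that switches the whole gene set on, through a promoter module of X and Y boxes that RFX, CREB and NF-Y bind. H2-Aa and H2-Ab1 encode the α and β chains of I-A, and H2-Eb1 encodes the β chain of I-E, whose α chain gene is defective in C57BL/6. Cd74 encodes the invariant chain that guards the peptide groove and guides the complex to the endosome. H2-DMa encodes a chain of H2-DM, which catalyses peptide loading there.

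In GENCODE M21 (GRCm38) the members other than Cd74 and Ciita sit in the class II region of chromosome 17: H2-DMa at 34119541 to 34139101, H2-Ab1 at 34257689 to 34269419, H2-Aa at 34282744 to 34287823 on the minus strand, and H2-Eb1 at 34305867 to 34316674. Ciita lies on chromosome 16 at 10480059 to 10528418. All are protein-coding. RefSeq promoter windows (GRCm38.p6, 250 bases before to 50 bases after a start) were found for 3 members, H2-Eb1, H2-Aa and H2-DMa, and not for Cd74, H2-Ab1 and Ciita. Windows were searched on both strands for AAC followed after 25 to 28 bases by ATTGG, a simple form of the X and Y box spacing that was chosen after these sequences were seen. The stretches below show the module in H2-Eb1 and H2-Aa, which had higher means in young CKO mice, and in H2-DMb1, which stayed near its CTL level. Each is written 5′ to 3′ on the strand of its gene, with AAC and ATTGG in capitals.
H2-Eb1, chr17:34305756-34305834, plus strand: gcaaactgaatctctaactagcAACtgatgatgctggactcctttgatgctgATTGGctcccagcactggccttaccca
H2-Aa, chr17:34287845-34287924, minus strand: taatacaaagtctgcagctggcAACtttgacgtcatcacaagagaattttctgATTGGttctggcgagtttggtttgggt
H2-DMb1, chr17:34153077-34153156, plus strand: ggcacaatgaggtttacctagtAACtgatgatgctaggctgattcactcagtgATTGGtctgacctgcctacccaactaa

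The module lay 89 bases before the start in H2-Eb1 and 79 bases before it in H2-Aa. Neither of the H2-DMa windows held it. The other class II genes with a window, H2-DMb1, H2-DMb2, H2-Oa and H2-Ob, all held it, 4 of 4. Of all 32851 promoter windows 2.49% held the module, and 37.4% held ATTGG or its reverse complement CCAAT. Counted by gene, 2.83% held the module. The pattern was chosen after the class II sequences were seen, so their matches beside these shares are not a test. A match is a description of letters and not of binding.

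Libraries used held 1859784 to 7784627 counts, and mice, with both libraries summed, 2218618 to 10125624. Library B of aged CTL 99 (187034 counts) was left out, as the submitters did. In the HSC marker list all 12 genes had counts in all 17 mice, Kit among them with 310.2 to 594 CPM (counts scaled to a common library size). Ythdf2 checks the labels: it was 92.9 to 124 CPM in young CTL and 50.6 to 60.0 CPM in young CKO mice (log2 fold change -0.95, adjusted p = 0.0406, edgeR's quasi-likelihood test), but in aged mice the mouse labelled CKO 121 held 186 CPM and the mouse labelled CTL 124 held 71.3 CPM, against 142 to 178 in the other aged CTL and 72.6 to 87.7 in the other aged CKO mice. Aged results of the members are therefore given with and without these mice. The call of Ythdf2 in young mice held in 1 of the 8 fits that left out 1 young mouse. Its log2 fold change there was -1.01 to -0.87, with adjusted p values of 0.0368 to 0.211. The summed level of 4 Y-linked genes was above 10 CPM in 3 of 4 young CTL and in 1 of 4 young CKO mice, and in 1 aged mouse of each genotype, so sex was not balanced in the young set. The sources used here do not say whether young and aged libraries were prepared or sequenced together, so age and any such batch cannot be told apart.

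Per kilobase of annotated exon, Cd74 had the highest mean of the 10 class II genes in every group. Among the 6 members its level in young CTL HSCs was 113.5 ± 47.5 CPM per kb (SD, n = 4), followed by H2-DMa at 84.8 ± 2.7, H2-Ab1 at 64.8 ± 11.3, H2-Aa at 24.8 ± 7.11, H2-Eb1 at 16.5 ± 4.46 and Ciita at 0.184 ± 0.104 CPM per kb. H2-DMb1 at 58.1 and H2-Oa at 32.9 CPM per kb lay between H2-Ab1 and H2-Aa. Cd74 and H2-DMa did not differ beyond the SD of Cd74. H2-Aa and H2-Eb1 differed by more than either SD, although their mice overlapped, at 17.6 to 34.1 and 12.8 to 22.8 CPM per kb. Ciita stood far below the others and rested on few counts, 4 to 15 per young mouse. In the remaining results levels are CPM per mouse and not per length.

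In young mice Cd74, H2-Eb1, H2-Aa and H2-Ab1 had higher means in CKO than in CTL HSCs, with mean ratios of 1.59 to 2.63, whereas H2-DMa and Ciita showed no such difference. None of these differences passed the adjusted test over all genes. The values of each gene follow, mouse by mouse.

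Cd74 was 229.6, 279, 157 and 97.5 CPM in CTL mice 1 to 4 and 861, 396, 528 and 223 CPM in CKO mice 1 to 4. CKO 4 fell within the CTL range and the other CKO mice lay above it. The log2 fold change was 1.40 ± 0.35 (SE), with an unadjusted p of 0.00111 and an adjusted p of 0.213 (edgeR's quasi-likelihood test, Benjamini-Hochberg over 11526 genes), and the exact two-sided permutation p was 0.0857, where 0.0286 is the smallest that 4 against 4 mice can give.

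H2-Eb1, the I-E β chain gene, was 24.8, 44.4, 31.1 and 27.6 CPM in CTL and 81.0, 61.7, 119.8 and 47.4 CPM in CKO mice. It was the only member whose young groups did not overlap, against 2.68% of all genes tested with every CKO mouse above every CTL mouse. Its log2 fold change was 1.28 ± 0.29, with an adjusted p of 0.120 by edgeR's quasi-likelihood test and an exact permutation p of 0.0286.

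The I-A genes differed less. H2-Aa was 81.3, 129, 99.4 and 66.7 CPM in CTL and 232, 101, 173 and 117 CPM in CKO mice. Its groups overlapped, CKO 2 and CKO 4 lying inside the CTL range, and the log2 fold change was 0.73 ± 0.26 with an adjusted p of 0.508 by edgeR's quasi-likelihood test. H2-Ab1 was 207, 152, 141 and 167 CPM in CTL and 323, 275, 267 and 193 CPM in CKO mice. Only CKO 4 overlapped with the CTL mice, and the log2 fold change was 0.67 ± 0.17 with an adjusted p of 0.230.

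H2-DMa, the loading chaperone gene, was 305.0, 290.0, 292 and 283 CPM in CTL and 261, 339, 333 and 259.8 CPM in CKO mice. The CTL mice lay inside the CKO range, and the log2 fold change was 0.03 with a 95% interval of -0.26 to 0.32. Ciita was between 0.695 and 3.08 CPM in CTL and between 0.762 and 2.75 CPM in CKO mice. Its groups overlapped over most of their range, and the interval of its log2 fold change, -1.72 to 1.52, allows a change in either direction of more than the I-A genes showed.

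Of the 6 members, 0 were called at an adjusted p below 0.05 in young mice, where 0.13% of all genes tested were called higher. At an unadjusted p below 0.05, 4 of 6 were higher, against 4.26% of all genes tested. The median log2 fold change of the 6 was 0.70, and that of all genes tested was -0.00093. Under DESeq2, 2 members passed, H2-Eb1 (adjusted p = 0.00366) and H2-Ab1 (adjusted p = 0.0372), where 0.504% of all genes were called higher. With edgeR's likelihood ratio test over mice 2 passed, H2-Eb1 (adjusted p = 0.00681) and Cd74 (adjusted p = 0.0182), where 0.469% of all genes were called higher.

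Each side of the Y-linked imbalance held a single mouse of 1 genotype, so no test was made within it. Among young mice with Y-linked counts, Cd74 was 157 to 279 CPM in 3 CTL mice and 861 CPM in CKO 1. Among those without, it was 97.5 CPM in CTL 4 and 223 to 528 CPM in 3 CKO mice. With the Y-linked level as a covariate, the log2 fold change of Cd74 was 1.96 with an adjusted p of 0.0152 (edgeR's quasi-likelihood test), and 0.0781% of all genes were called higher. H2-Eb1 (adjusted p = 0.225), H2-Aa (adjusted p = 0.132) and H2-Ab1 (adjusted p = 0.203) did not pass in that fit.

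**Figure D1:**
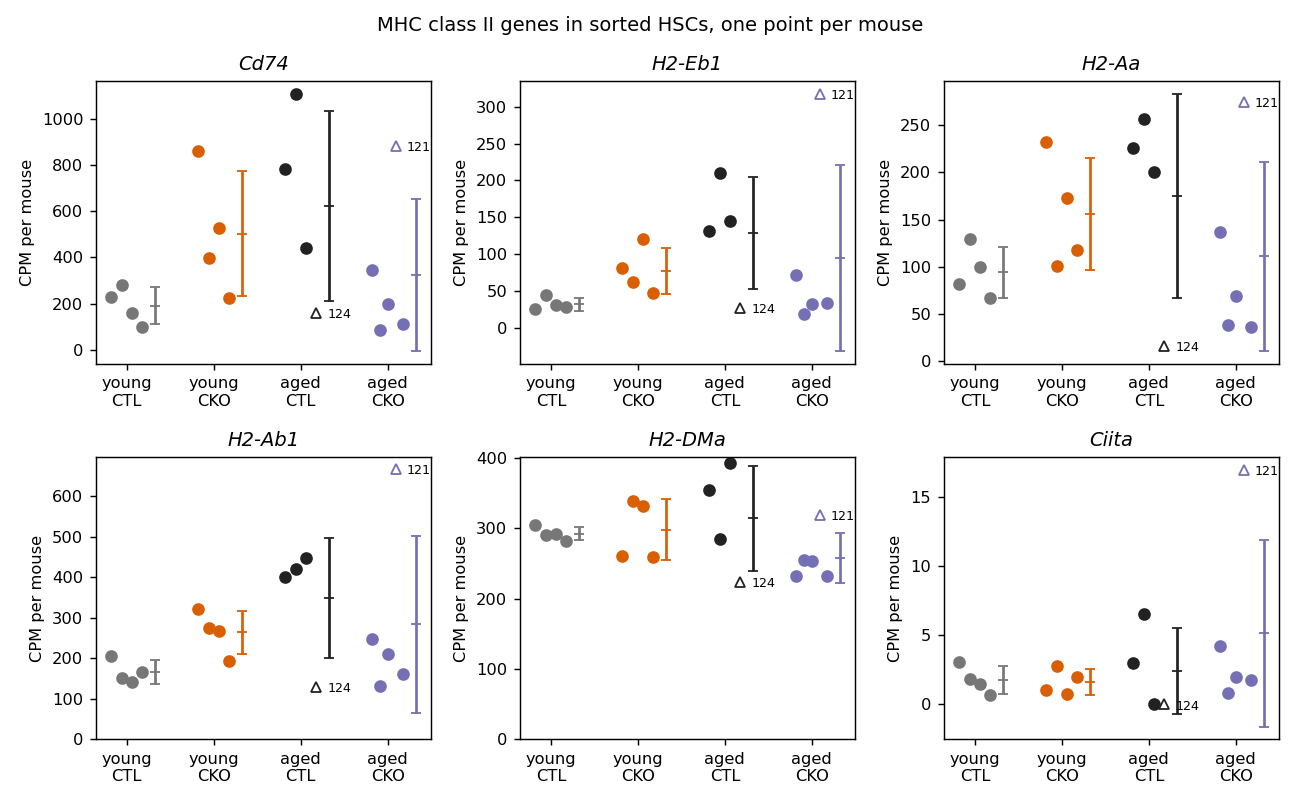
Level of each class II member in CPM (y axis, linear) for every mouse, by group (x axis); bars to the right of the points give the mean and SD, and open triangles are the aged mice whose Ythdf2 level went against the label. In young mice H2-Eb1 separates the genotypes, at 24.8 to 44.4 CPM in CTL and 47.4 to 119.8 CPM in CKO, and in aged mice CKO 121 lies far above the other CKO mice for H2-Eb1, H2-Ab1 and Ciita.

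In aged mice the order was the other way round: Cd74, H2-Eb1, H2-Aa, H2-Ab1 and H2-DMa had lower means in CKO than in CTL HSCs. As labelled, none of the differences passed the test. Without the mice labelled CKO 121 and CTL 124, H2-Eb1 and H2-Ab1 were called lower in CKO mice, against 0.125% of all genes tested. All members but Ciita then had every CKO mouse below every CTL mouse, against 5.2% of all genes. The calls of H2-Eb1 and H2-Ab1 were lost in 5 and 6 of the 7 fits that left out 1 more mouse.

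Cd74 was 782, 1109, 440.1 and 159 CPM in aged CTL mice 65, 99, 114 and 124, and 346, 84.0, 197, 885 and 110.4 CPM in aged CKO mice 78, 81, 94, 121 and 122. CTL 124 lay among the low CKO mice and CKO 121 among the high CTL mice. The log2 fold change was -0.94 ± 0.63 with an adjusted p of 0.653 (edgeR's quasi-likelihood test over 11961 genes) and an exact permutation p of 0.222, where 0.0159 is the smallest possible. Without the 2 mice it was -2.09 ± 0.42 with an adjusted p of 0.0652.

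H2-Eb1 was 132, 209, 145 and 26.8 CPM in the aged CTL mice and 71.7, 19.0, 32.1, 317 and 33.2 CPM in the aged CKO mice, in the same order. CKO 121 had the highest and CKO 81 the lowest level of all 17 mice. The log2 fold change was -0.43 ± 0.73 with an adjusted p of 0.892, and -2.06 ± 0.36 with an adjusted p of 0.0316 without CKO 121 and CTL 124 (edgeR's quasi-likelihood test).

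H2-Aa was 226, 257, 201 and 16.3 CPM in the aged CTL mice and 137, 38.8, 69.2, 275 and 35.8 CPM in the aged CKO mice. CTL 124 had the lowest and CKO 121 the highest level of all 17 mice. Its log2 fold change was -0.65 ± 0.67 with an adjusted p of 0.803, and -1.70 ± 0.38 with an adjusted p of 0.0843 without these mice.

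H2-Ab1 was 400.3, 421, 448 and 129 CPM in the aged CTL mice and 248, 132, 212, 668 and 162 CPM in the aged CKO mice. The CTL mice 65, 99 and 114 lay close together and above the CKO mice other than 121. H2-Ab1 had a log2 fold change of -0.29 ± 0.45 with an adjusted p of 0.878, and -1.18 ± 0.21 with an adjusted p of 0.0316 without CKO 121 and CTL 124.

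H2-DMa spread least, at 354, 286, 393 and 224 CPM in the aged CTL mice and 233, 255, 254, 319 and 232 CPM in the aged CKO mice. Its log2 fold change was -0.27 ± 0.19 (adjusted p = 0.666) and -0.51 ± 0.16 without these mice (adjusted p = 0.213, edgeR's quasi-likelihood test). Ciita was 3.02, 6.53, 0 and 0 CPM in the aged CTL mice and 4.22, 0.779, 1.94, 17.0 and 1.72 CPM in the aged CKO mice. CKO 121 alone held 131 of its counts, and CTL 114 and CTL 124 held 0. The log2 fold change of Ciita was 1.16 with all aged mice and -0.52 without CKO 121 and CTL 124, so its direction rested on these mice.

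With all aged mice, 0 of 6 members were called lower and 0 of 6 lay below every CTL mouse in every CKO mouse. Over all genes 0% were called lower, 5.65% were lower at an unadjusted p below 0.05 and 1.67% had every CKO mouse below every CTL mouse. At an unadjusted p below 0.05 no member passed, and DESeq2 called 0 members, where it called 0.419% of all genes lower. Without the 2 mice, 5 of 6 members were lower at an unadjusted p below 0.05 against 6.05% of all genes tested. Each of these groups then held 3 or 4 mice, and the exact permutation p of the 5 members other than Ciita was 0.0571, the smallest that 3 against 4 mice can give. When each of the 7 mice was left out in turn, a choice made after seeing the data, H2-Eb1 and H2-Ab1 kept their sign throughout, with adjusted p values of 0.00451 to 0.161 and 0.0290 to 0.167. The call of H2-Eb1 held without CTL 114 or CKO 78 and was lost without CTL 65, CTL 99, CKO 81, CKO 94 or CKO 122, and that of H2-Ab1 held only without CKO 78. Leaving out CKO 121 alone gave a log2 fold change of -1.76 for Cd74 and -1.72 for H2-Eb1, both with an adjusted p of 0.259. These were the largest decreases of the 9 fits that left out 1 aged mouse. The smallest were -0.51 for Cd74 and -0.11 for H2-Eb1, and the highest adjusted p values were 0.867 and 0.979.

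**Figure D2:**
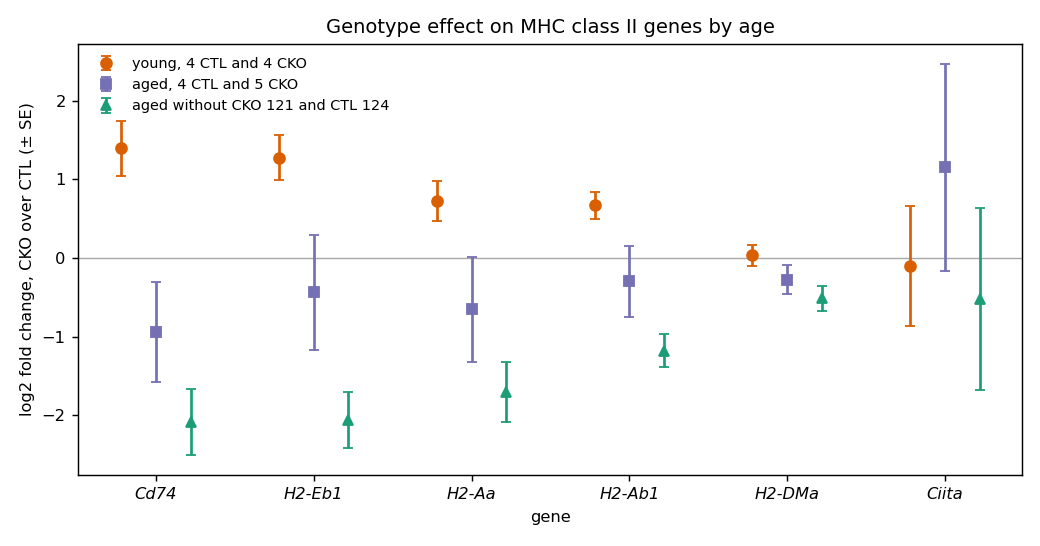
Log2 fold change of CKO over CTL with its SE (y axis) for each member (x axis) in young mice, in aged mice, and in aged mice without CKO 121 and CTL 124. Cd74 stands at 1.40 in young, -0.94 in aged and -2.09 in the remaining aged mice, whereas H2-DMa stays between 0.03 and -0.51.

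The difference between the ages was tested as the interaction of genotype and age. Over all 17 mice it was -2.33 ± 0.83 for Cd74 (unadjusted p = 0.0102, adjusted p = 0.942), -1.70 ± 0.90 for H2-Eb1, -1.38 ± 0.82 for H2-Aa and -0.96 ± 0.54 for H2-Ab1 on the log2 scale (edgeR's quasi-likelihood test over 12352 genes). The adjusted p of each of the other members was 0.999. Thus 0 of 6 members were called, as were 0% of all genes in this direction, and 1 of 6 was lower at an unadjusted p below 0.05 against 2.7%. Without CKO 121 and CTL 124 the interaction was -3.48 ± 0.62 for Cd74 (adjusted p = 0.0205), -3.33 ± 0.49 for H2-Eb1 (adjusted p = 0.00493), -1.84 ± 0.28 for H2-Ab1 (adjusted p = 0.00504) and -2.43 ± 0.50 for H2-Aa (adjusted p = 0.0593). That is 3 of 6 members called, against 0.113% of all genes tested, and 5 of 6 at an unadjusted p below 0.05, against 3.88%. The interaction of H2-DMa was -0.54 ± 0.20 (adjusted p = 0.606). In this contrast too, age cannot be told apart from any batch between the sets.

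Ythdf2 and Cd74 can be read side by side in the aged mice. The mice with Ythdf2 at 142 CPM or above, CTL 65, CTL 99, CTL 114 and CKO 121, had 440.1 to 1109 CPM of Cd74. The mice with Ythdf2 at 87.7 CPM or below, CTL 124 and the other CKO mice, had 84.0 to 346 CPM. In the young mice Ythdf2 at 60.0 CPM or below stood beside Cd74 at 223 to 861 CPM, and Ythdf2 at 92.9 CPM or above beside Cd74 at 97.5 to 279 CPM, so the Cd74 levels overlapped. These values were not tested, since the split follows a measured level.

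**Figure D3:**
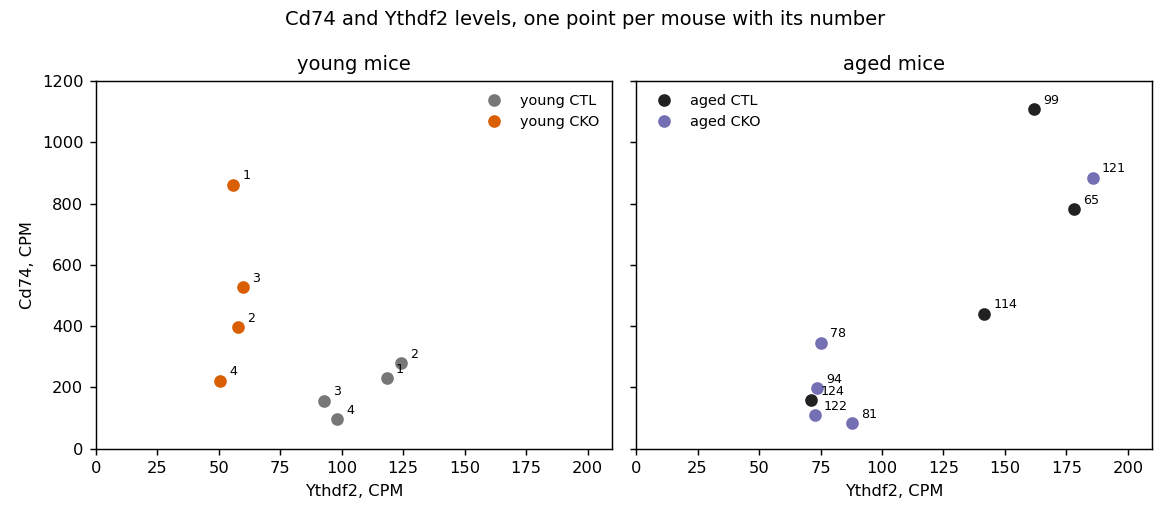
Cd74 (y axis, CPM) against Ythdf2 (x axis, CPM), one point per mouse with its number, young mice on the left and aged mice on the right. The mouse labelled CKO 121 (186 CPM of Ythdf2) sits beside CTL 65, and the mouse labelled CTL 124 (71.3 CPM) sits among CKO mice.

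The members H2-Aa, H2-Ab1 and H2-Eb1 went with Cd74 over mice of both ages. Within the 8 young mice the log2 level of Cd74 correlated with that of H2-Aa (Pearson r = 0.89, exact permutation p = 0.00384; Spearman rho = 0.83, p = 0.0154), H2-Ab1 (r = 0.84, exact p = 0.00853) and H2-Eb1 (r = 0.84, exact p = 0.00970). Adjusted over the 10 relations computed, the p values of r were 0.00961, 0.0162 and 0.0162. Without the 2 mice farthest from the median of Cd74, r was 0.64, 0.83 and 0.87. With H2-DMa and Ciita r was 0.13 and -0.03 (adjusted exact permutation p = 0.837 and 0.949), and 0.72 and -0.34 without the 2 farthest mice, so the low r of H2-DMa rested on those mice. Spearman's rho was 0.79 for both H2-Ab1 and H2-Eb1 (exact p = 0.0279), and 0.26 and 0.05 for H2-DMa and Ciita.

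Within the 9 aged mice r with Cd74 was 0.95 for H2-Eb1, 0.92 for H2-Ab1 and 0.90 for H2-Aa, with adjusted exact permutation p values of 0.00314, 0.00615 and 0.00653. Spearman's rho was 0.92, 0.87 and 0.92 (exact p = 0.00131, 0.00451 and 0.00131), and r without the 2 farthest mice was 0.93, 0.92 and 0.90. H2-DMa reached 0.65 and Ciita 0.56 (adjusted exact p = 0.0900 and 0.149), and 0.77 and 0.49 without the 2 farthest mice. Each relation spans both genotypes, so r and its p do not separate co-variation from a genotype difference that both genes share. A group of 4 or 5 mice is too small for its own r.

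Both libraries of a mouse were separate sets of 100 cells, so their ratio compares samples of cells from 1 animal. Over the 16 mice with both libraries, the median absolute log2 ratio was 0.78 for Cd74, 0.50 for H2-Eb1, 0.45 for H2-Ab1, 0.43 for H2-Aa and 0.26 for H2-DMa. It was 0.49 for all genes tested and 0.31 for the 4724 genes with means of 50 to 500 CPM. Cd74 thus differed more between libraries than most genes of similar level: the widest gap was in young CKO 1, at 1206 CPM in library A and 451 CPM in library B. In aged CTL 65 it was 449 and 1010 CPM.

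The library ratios of Cd74 and its partners also went together. Over 16 mice the log2 ratio of Cd74 correlated with that of H2-Eb1 (Pearson r = 0.74, permutation p = 0.00134; Spearman rho = 0.68, p = 0.00508) and H2-Ab1 (r = 0.73, permutation p = 0.00112; rho = 0.79, p = 0.00040), with the same sign in 13 of 16 mice each. Adjusted over 15 relations, chosen after seeing the data, these p values of r were 0.0100 and 0.0100. Without the 2 farthest mice r was 0.58 and 0.73. Of the 12351 other genes, 6 had an r with Cd74 as high as H2-Eb1 had, itself included. For H2-Aa, r was 0.42 (adjusted permutation p = 0.249) and rho was 0.67, the 2 libraries of CTL 124 standing apart at 3.61 and 27.1 CPM. Within the 8 young mice r was 0.88 for H2-Eb1, 0.77 for H2-Ab1 and 0.85 for H2-Aa (adjusted exact permutation p = 0.0281, 0.0647 and 0.0369), but 0.25, 0.52 and 0.0061 without the 2 farthest mice, so the young relation rested on those mice. Within the 8 aged mice with both libraries it was 0.52, 0.61 and -0.28 (adjusted exact permutation p = 0.341, 0.249 and 0.757), and 0.83, 0.45 and 0.67 without the 2 farthest mice, so the aged values depended on those mice too. In the same order Spearman's rho was 0.62, 0.71 and 0.64 in young and 0.43, 0.76 and 0.21 in aged mice, none with an adjusted exact p below 0.138. For H2-DMa and Ciita r over 16 mice was 0.32 and -0.27 (adjusted permutation p = 0.369 and 0.429), with rho of 0.26 and -0.24.

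**Figure D4:**
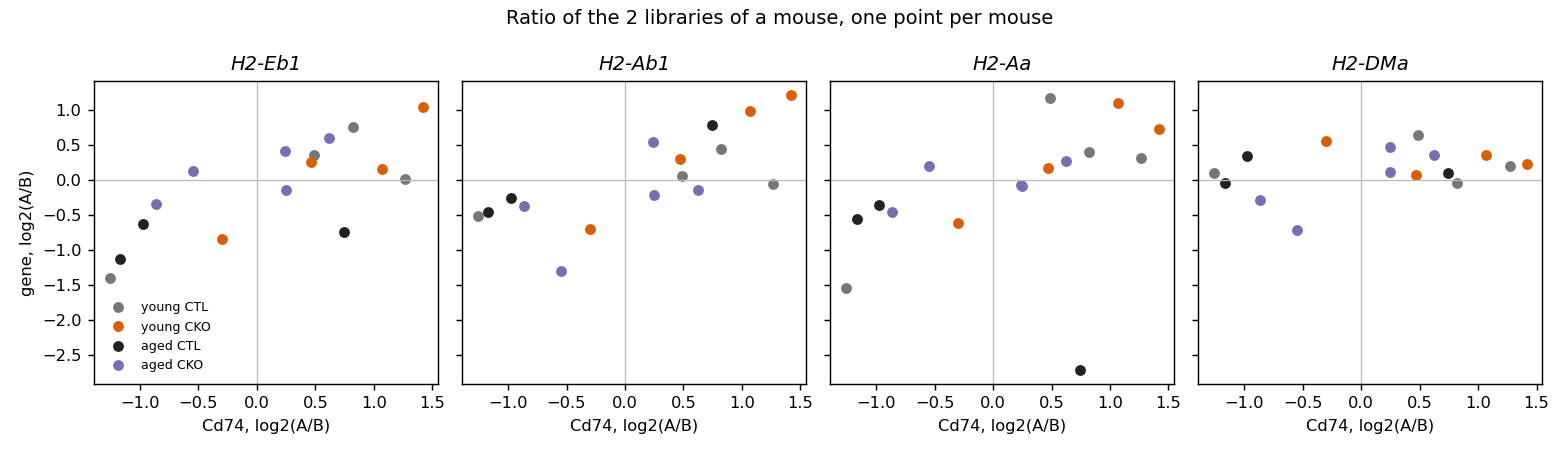
Log2 ratio of library A to library B of a mouse for Cd74 (x axis) and for H2-Eb1, H2-Ab1, H2-Aa and H2-DMa (y axes), one point per mouse, colored by group. H2-Eb1 and H2-Ab1 follow Cd74 (r = 0.74 and 0.73), and the low point for H2-Aa is aged CTL 124.

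The genes whose pattern over the 17 mice was most like that of Cd74, with log2 levels centred within each age, included 3 members: H2-Eb1 (Pearson r = 0.92), H2-Ab1 (r = 0.89) and H2-Aa (r = 0.87) ranked 2, 4 and 5 among 12351 genes. Mir5107 ranked 1 (r = 1.00), and its annotation overlaps Cd74 on the same strand, so their reads cannot be told apart. The others were Gbp2 (r = 0.90), a guanylate-binding GTPase, Esyt3 (r = 0.86), H2-T23 (r = 0.84), a nonclassical class I gene, Il2rg (r = 0.82), the common γ chain of cytokine receptors, Shisa5 (r = 0.82) and Laptm4b (r = 0.81). H2-DMa ranked 323 (r = 0.52) and Ciita 633 (r = 0.44). The annotation of H2-DMa also overlaps Brd2 and that of Ciita overlaps Dexi, both on the opposite strand. Whether the counting used strand is not given in the sources used here.

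The other class II genes of the list, H2-DMb1, H2-DMb2, H2-Oa and H2-Ob, encode the partner chains of H2-DM and the subunits of its inhibitor H2-O. In young mice 0 of 4 were called in either direction. H2-DMb1 was 82.7 to 107 CPM in CTL and 96.9 to 128 CPM in CKO mice (log2 fold change 0.21, 95% interval -0.13 to 0.56), and H2-Oa was 40.5 to 54.3 and 34.9 to 43.2 CPM (-0.25, interval -0.69 to 0.19). H2-Ob was 38.0 to 52.3 and 22.2 to 46.5 CPM (-0.27), and H2-DMb2 stayed at or below 5.69 CPM (0.02). In none of these 4 did the young groups separate.

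In aged mice 0 of these 4 were called as well, with or without CKO 121 and CTL 124. H2-Ob was 43.4, 30.6, 85.4 and 31.5 CPM in aged CTL and 31.4, 21.9, 29.5, 36.1 and 16.1 CPM in aged CKO mice. Its log2 fold change was -0.81 ± 0.35 (adjusted p = 0.464) and -1.12 ± 0.36 without the 2 mice (adjusted p = 0.236, edgeR's quasi-likelihood test). H2-Oa stood at -0.41, H2-DMb2 at -0.34 and H2-DMb1 at 0.02 on the log2 scale. Without the 2 mice these genes stood at -0.74, -1.45 and -0.20 (adjusted p = 0.369, 0.651 and 0.746). H2-Ea, H2-Ea-ps and H2-Eb2 were not analysed here.

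Among 15 regulators of class II transcription and interferon-γ signalling, 1 was called higher and 0 lower in young mice. Over all genes tested the shares were 0.13% and 0.0434%. In aged mice 0 of the 15 were called with or without CKO 121 and CTL 124. For the difference between ages without these mice, 1 was called lower, against 0.113% of all genes tested. The median log2 fold change of the list was 0.05 in young mice and -0.18 in aged mice. The members with the smallest p in aged mice were Irf8, an interferon-responsive factor of myeloid and B cells (-1.98, adjusted p = 0.387), and Creb1, an X box factor (-0.60, adjusted p = 0.398). Without the 2 mice Irf8 stood at -2.05 (adjusted p = 0.320) and Creb1 at -0.43 (adjusted p = 0.499). Among 10 tested genes of peptide loading and class II turnover 0 were called at either age: Ctss, the protease that removes the invariant chain, stood at 0.68 in young mice (adjusted p = 0.598) and -1.54 in aged mice (adjusted p = 0.497), or -0.84 without the 2 mice (adjusted p = 0.725). Of 7 tested costimulatory genes and partners of Cd74, 0 were called at either age, with or without the 2 mice.

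For the difference between ages without the 2 mice, 0.113% of all genes tested were called lower. Of that list 1 gene was among them, Cd86, a costimulatory ligand (-4.09, adjusted p = 0.0361, edgeR's quasi-likelihood test). It was 13.6, 11.5, 5.78 and 9.38 CPM in the young CTL and 14.7, 14.5, 26.7 and 24.6 CPM in the young CKO mice (log2 fold change 1.01, adjusted p = 0.530). In aged mice it was 10.9, 17.1, 9.28 and 1.84 CPM in CTL and 0.865, 1.36, 3.499, 7.15 and 0.287 CPM in CKO mice (-1.89, adjusted p = 0.499), and the fold change was -3.07 without the 2 mice (adjusted p = 0.141). As with the members, CTL 124 was the lowest aged CTL mouse and CKO 121 the highest aged CKO mouse. Icosl, of the same list, stood the other way in aged mice, at 2.26 (adjusted p = 0.430) and 1.75 without the 2 mice (adjusted p = 0.518). Its difference between ages without these mice was 2.27 (adjusted p = 0.721), and in young mice it stood at -0.53 (adjusted p = 0.911).

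Class II is abundant in B cells, dendritic cells and macrophages. HSCs were sorted as negative for lineage antibodies, anti-B220 and anti-CD11b among them, a gate that removes B cells and most myeloid cells. In bulk libraries of 100 cells, fewer cells of a type and less RNA per cell cannot be told apart. B cell markers in the table summed to 83.5 to 98.5 CPM in young CTL and 94.7 to 153 CPM in young CKO mice, and to 48.2 to 80.2 and 59.8 to 105 CPM in aged CTL and CKO mice, most of it Cd79b. Ms4a1 was at 0 in all mice and Cd79a at or below 1.22 CPM. Of the tested B cell genes, 0 were called.

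Dendritic cell markers summed to 119.9 to 136 and 112 to 149 CPM in young CTL and CKO mice and to 146 to 258 and 108 to 156 CPM in aged CTL and CKO mice. Itgax, the CD11c gene, was at 0 in all mice. Flt3 was 31.4, 19.2, 102.6 and 33.3 CPM in the aged CTL and 10.8, 12.5, 18.7, 34.0 and 12.5 CPM in the aged CKO mice (log2 fold change -1.38, adjusted p = 0.398), and the fold change was -1.93 without CKO 121 and CTL 124 (adjusted p = 0.121). Fscn1, an actin-bundling gene of mature dendritic cells, was 10.1, 29.0, 5.01 and 9.36 CPM in the aged CTL and 0.216, 0.682, 2.72, 9.10 and 0.431 CPM in the aged CKO mice (-2.33, adjusted p = 0.440), and its fold change was -3.92 without the 2 mice (adjusted p = 0.112). CKO 121 was again the highest aged CKO mouse. Zbtb46, a dendritic cell factor, stood at -1.68 (adjusted p = 0.651) and -2.30 without the 2 mice (adjusted p = 0.507). Clec9a stood the other way, at 0.31 in aged mice and 0.11 without the 2 mice (adjusted p = 0.947 and 0.972). Tcf4 stood at -0.24 and -0.28 (adjusted p = 0.686 and 0.636). In young mice Fscn1 stood at -0.27 (adjusted p = 0.979), Flt3 at -0.33 (adjusted p = 0.896) and Tcf4 at 0.22 (adjusted p = 0.893). Of the tested genes of this list, 0 of 3 in young and 0 of 5 in aged mice were called.

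Monocyte and macrophage markers summed to 789 to 853 and 822 to 986 CPM in young CTL and CKO mice and to 454 to 777 and 482 to 797 CPM in aged CTL and CKO mice, most of it Lyz2. Csf1r stayed at or below 2.38 CPM and Adgre1 at or below 5.05 CPM. Cd68, a lysosomal gene of macrophages, was 18.6 to 25.5 CPM in young CTL and 33.0 to 60.5 CPM in young CKO mice (log2 fold change 1.13, adjusted p = 0.101). In aged mice it was 6.53 to 21.9 and 10.7 to 50.7 CPM (1.61, adjusted p = 0.332, and 1.82 with an adjusted p of 0.112 without the 2 mice). C1qb, a complement gene of macrophages, stood the other way in aged mice, at 2.19 to 27.4 CPM in CTL and 0 to 3.60 CPM in CKO mice (-3.40, adjusted p = 0.312, and -2.73 with an adjusted p of 0.330 without the 2 mice). CKO 121, high in class II, held 0.650 CPM of C1qb, and CTL 124, low in class II, held 27.4 CPM. Of the tested genes, 0 of 7 were called at either age. Multipotent progenitor markers summed to 521 to 634 and 630 to 763 CPM in young and to 244 to 782 and 250.3 to 397 CPM in aged CTL and CKO mice, and 0 of 5 tested genes were called.

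Erythroid and platelet markers, of which Pf4 held the most counts over all mice, summed to 522 to 893 and 1006 to 3126 CPM in young CTL and CKO mice. They summed to 364 to 570 CPM in the aged CTL and 564 to 1987 CPM in the aged CKO mice, in which CKO 121 was the lowest. By this list CTL 124, at 570 CPM, sat at the top of the aged CTL range, next to CKO 121. Pf4, a platelet chemokine, was called higher in young mice (log2 fold change 1.80, adjusted p = 0.0488) and not in all aged mice (2.05, adjusted p = 0.205). Without CKO 121 and CTL 124, the fit in which H2-Eb1 and H2-Ab1 were called lower, Pf4 (2.24, adjusted p = 0.000361) and the integrin gene Itga2b (1.83, adjusted p = 0.00316) were called higher. Of 12 HSC markers 1 was called in young mice, Ly6a, the Sca-1 gene used in the sort (1.20, adjusted p = 0.0201), and 0 in aged mice with or without the 2 mice. Over all genes tested, 0.13% were called higher in young mice and 0.208% in aged mice without the 2 mice. T and NK cell and granulocyte markers had 0 called genes at either age. Of 6 tested granulocyte genes in aged mice, 5 had a positive log2 fold change and 1, Mpo, a negative one (-3.31, adjusted p = 0.380). Mpo stood at -4.13 without the 2 mice (adjusted p = 0.161). The part of these cell types in the class II values was not tested.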

How the data were processed

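Sorted HSCs were sequenced in 34 libraries of 17 mice. The authors aligned reads to GRCm38 with HISAT2 and counted genes with Rsubread, and the deposited counts are whole, unnormalized reads per gene. The annotation, strand and multi-mapping settings are not given in the sources used here. Of 13108 rows, 1 held no counts and 20 had date-like names. Libraries of a mouse were summed, leaving out library B of aged CTL 99. Depth was 2218618 to 10125624 counts per mouse, so a count of 3 corresponds to 0.292 to 1.22 CPM, which covers counting error only. Amplified reads were not molecules.

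CKO was compared with CTL within each age, and the interaction over all 17 mice, with edgeR 4.0.16 (quasi-likelihood test, TMM, filterByExpr with minimum count 10 and total 15) in R 4.3.3, with Benjamini-Hochberg adjustment over all genes tested and a threshold of 0.05. The design text of the series treats the 2 libraries of a mouse as biological replicates, whereas the paper's captions give n = 4 for young HSCs. The paper used likelihood ratio tests. Here the mouse was the replicate, and the library-level test was run as an alternative. CPM used TMM factors over 17 mice, and log2 CPM a prior count of 2. Permutation tests were two-sided and exact below 10 mice, and otherwise used 100000 permutations (Python 3.11.15). Intervals of fold changes are at 95%, from the SE and the degrees of freedom of the test. Scripts were tested on simulated data. Alternatives were DESeq2 1.42.0, other normalization, filters and priors, a Y-linked covariate, a replicate block, a single fit, and leaving out mice. The correlation of library ratios and the leaving out of mice within the remaining 7 aged mice were added after seeing the data.

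The members, gene lists and tests were chosen with earlier results of these data known. The text names the members and the other class II genes, Ythdf2, called genes and up to 3 genes with the smallest p of each list and age, and the 10 genes most like Cd74. Other single genes were named after their values were seen. Results for some genes are not reported here, although these genes remain in every count and sum.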

Additional observations from a re-analysis of the deposited data

Results flagged for a closer look

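Gaps between a mouse and the rest of its group were examined for the 10 class II genes and Ythdf2 in 44 groups of 4 or 5 mice, where chance flags about 1 in 20, or 2.2. In 9 a mouse stood apart. In the mouse labelled CKO 121, H2-Eb1 was 317.3 CPM against 71.7 in the next aged CKO mouse, H2-Ab1 was 667.9 against 248, H2-DMa was 319.1 against 255, Ciita was 17.02 against 4.22, H2-DMb2 was 4.678 against 1.75, and Ythdf2 was 185.7 against 87.7. In the mouse labelled CTL 124, H2-Ab1 was 129.3 CPM against 400.3 in the next aged CTL mouse. H2-DMb1 was low in aged CKO 94, at 91.17 against 121 CPM, and H2-Ob was high in young CTL 3, at 52.31 against 40.5 CPM.

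The genotype effect differed between the ages by the interaction test once CKO 121 and CTL 124 were left out, by -3.479 for Cd74, -3.332 for H2-Eb1 and -1.843 for H2-Ab1 on the log2 scale. With all mice no member passed that test.

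The library left out of the comparisons, B of aged CTL 99, held 23 counts of Ciita among 187034, or 123 CPM by plain totals, against at most 6.53 CPM in any aged CTL mouse. The same library held 0 counts of Cd74 and H2-Eb1, 5 of H2-Aa and 3 of H2-Ab1.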

How the results depend on the processing

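Cd74, H2-Eb1, H2-Aa and H2-Ab1 kept their sign under all 17 alternatives in young mice, 18 in aged mice and 25 for the difference between ages. Members called higher in young mice numbered 2 with DESeq2, 2 with either likelihood ratio test, 1 with the Y-linked covariate and 1 with the replicate block (Cd74, log2 fold change 1.35, adjusted p = 0.0256). Mouse numbers did not pair the young mice (correlations of deviations -0.019 to 0.049), and aged mice share no numbers. Members called lower without CKO 121 and CTL 124 numbered 2 in aged mice and 3 for the difference between ages. Leaving out each mouse in turn from the fits of all young, all aged or all 17 mice gave 0 called members.

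Over all genes, those called higher and lower in young mice were 58 and 19 with DESeq2, 54 and 13 with the likelihood ratio test over mice, 66 and 24 with it over libraries, 9 and 1 with the Y-linked covariate, and 1 and 0 with a single fit over 17 mice. The replicate block gave 2 lower. In aged mice they were 54 and 50, 42 and 34, 136 and 284 in the same order of tests, 3 and 2 with the single fit, and 25 and 15 without CKO 121 and CTL 124. For the difference between ages they were 3 and 1 with the likelihood ratio test over mice, 3 higher with it over libraries, and 1 and 14 without CKO 121 and CTL 124. Leaving out each mouse gave 0 to 14 higher and 0 to 4 lower in young, 0 to 12 and 0 to 4 in aged mice, and 0 and 0 to 2 for the difference.

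Reversals were seen for H2-DMa, Ciita and Ythdf2. In young mice H2-DMa was -0.0081 and Ciita 0.13 with the Y-linked covariate, and leaving out mice gave -0.0308 to 0.093 and -0.47 to 0.29. Without CKO 121 and CTL 124, Ciita was -0.52 in aged mice and -0.41 for the difference, and Ythdf2 was -0.11 for the difference. Leaving out single aged mice gave -0.0898 to 2.26 for Ciita, and -1.13 to 0.48 among the remaining 7. The cause was not tested. Ciita held 0 to 131 counts per mouse, and small differences in it were not detectable at this depth.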
